A study of Mus musculus with 12 samples.

Results

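The muscle nicotinic acetylcholine receptor and the proteins that gather it under the motor nerve ending were followed through the conversion of mouse fibroblasts to muscle. The 10 genes were the receptor subunits Chrna1, Chrnb1, Chrnd, Chrng and Chrne, the clustering genes Lrp4, Musk, Dok7 and Rapsn, and the acetylcholinesterase gene Ache. They were found by the RefSeq accession printed for each array probe, among 17178 genes named this way, and were read by 13 probes. Chrna1, Chrng and Chrne each had 2 probes and the other genes had 1.

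C3H/10T1/2 is a mouse embryonic fibroblast line that is converted to skeletal muscle by MyoD, a transcription factor of the basic helix-loop-helix class. The cells stably carried a short hairpin against the homeobox factor Six4 (shSix4) or the control hairpin shLuc, and each line was infected with a pBABE retrovirus that was empty or carried MyoD. All cells were moved 24 h after infection to medium with 2% horse serum for 24 h. The 4 groups were shSix4 cells with MyoD, shSix4 cells with empty vector, shLuc cells with MyoD and shLuc cells with empty vector, with 3 single-colour arrays each. Every group thus carries a hairpin and a retrovirus. Whether a line was a clone, and whether replicates were separate cultures, is not stated in the labels, so the p-values rest on the spread between these arrays, which may be technical. One field of the labels names another muscle line, against all other fields, and was not used.

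In muscle, acetylcholine opens a channel of 5 subunits. The fetal form holds the gamma subunit (Chrng), and the adult form holds epsilon (Chrne) in its place, beside alpha (Chrna1), beta (Chrnb1) and delta (Chrnd). Agrin from the nerve binds the receptor LRP4, which activates the kinase MuSK. DOK7 sustains that kinase from inside the cell, rapsyn (Rapsn) anchors the channels in clusters, and acetylcholinesterase (Ache) breaks the transmitter down. MyoD and its relatives bind E-boxes, short DNA words that are frequent in the promoters of the embryonic receptor genes. The epsilon gene is known for an N-box, bound by Ets factors, which serves its expression in nuclei beneath the nerve.

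Promoter windows of RefSeq (assembly GRCm38.p6, 250 bases before to 50 after the annotated start) are shown for the gamma and epsilon genes, which the text below sets against each other, for alpha and beta, and for the kinase gene Musk, which was hardly detected. Windows were matched by symbol for 7 of the 10 genes, 8 windows in all because Dok7 has 2, and none was used for Chrnd, Rapsn or Lrp4. Capitals mark E-boxes (CANNTG, which reads the same rule on either strand) and, in Chrne, also the N-box (CCGGAA). The windows lie at chr1:87205561-87205860 on the plus strand for Chrng, chr2:73580289-73580588 on the minus strand for Chrna1 and chr11:69795888-69796187 on the minus strand for Chrnb1. Those of Musk and Chrne lie at chr4:58285712-58286011 on the plus strand and at chr11:70619145-70619444 on the minus strand. Each is written 5′ to 3′ along its gene.
Chrng: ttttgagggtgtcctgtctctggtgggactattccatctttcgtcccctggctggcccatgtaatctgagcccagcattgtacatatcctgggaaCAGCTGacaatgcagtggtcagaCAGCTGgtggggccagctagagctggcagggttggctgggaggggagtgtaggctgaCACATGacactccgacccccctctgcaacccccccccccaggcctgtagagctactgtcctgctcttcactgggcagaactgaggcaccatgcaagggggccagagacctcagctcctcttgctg
Chrna1: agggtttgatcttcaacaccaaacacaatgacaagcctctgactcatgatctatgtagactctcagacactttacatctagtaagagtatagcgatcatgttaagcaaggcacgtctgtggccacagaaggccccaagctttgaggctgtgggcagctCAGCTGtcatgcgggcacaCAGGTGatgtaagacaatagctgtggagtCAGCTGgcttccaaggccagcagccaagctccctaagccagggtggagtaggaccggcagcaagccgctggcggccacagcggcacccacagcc
Chrnb1: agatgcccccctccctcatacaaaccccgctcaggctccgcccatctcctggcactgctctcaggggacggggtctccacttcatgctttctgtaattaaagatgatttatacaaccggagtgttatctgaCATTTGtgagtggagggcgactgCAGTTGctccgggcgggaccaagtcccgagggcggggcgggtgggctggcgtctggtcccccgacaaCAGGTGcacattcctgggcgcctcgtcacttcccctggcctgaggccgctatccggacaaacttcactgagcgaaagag
Musk: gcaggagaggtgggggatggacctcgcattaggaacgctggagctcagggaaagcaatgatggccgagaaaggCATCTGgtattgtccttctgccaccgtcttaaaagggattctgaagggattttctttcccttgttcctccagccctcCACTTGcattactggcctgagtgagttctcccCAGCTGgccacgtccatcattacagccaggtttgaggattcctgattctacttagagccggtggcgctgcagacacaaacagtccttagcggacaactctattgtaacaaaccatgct
Chrne: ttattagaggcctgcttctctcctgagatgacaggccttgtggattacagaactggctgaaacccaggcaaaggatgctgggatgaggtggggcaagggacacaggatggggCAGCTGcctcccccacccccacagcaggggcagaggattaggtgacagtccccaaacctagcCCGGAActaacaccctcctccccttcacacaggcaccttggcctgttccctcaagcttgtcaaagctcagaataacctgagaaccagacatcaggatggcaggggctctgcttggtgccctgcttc

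Chrng, Chrna1, Chrnb1 and Musk each held 3 E-boxes in this window and Chrne held 1. Among 32851 RefSeq promoter windows of the same length, 72.3% held at least 1 E-box and 17.6% held 3 or more. The E-box form CAGCTG, a part of CANNTG, stood at -155 and -132 in Chrng and at -92 and -44 in Chrna1, and 1.9% of all windows held 2 or more of it. It stood also at -68 in Musk and at -138 in Chrne, and 16.3% of windows held at least 1. The form CACCTG, searched on both strands and also an E-box, was found as CAGGTG at -73 in Chrna1 and at -29 in Chrnb1 (20.2% of windows). The window of Ache and the first of Dok7 held 1 E-box each, and the second of Dok7 held 0. The N-box was found in Chrne alone of the 8 windows, at -76 (14.9% of all windows). The core TCAGGTT of the MEF3 element, the known site of Six4 and its relatives, was searched on both strands and found in Chrne alone of the 8, at -3 on the other strand and left in lower case (4.07% of windows). A match describes letters only, and these windows hold no measurement of binding.

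Per array, 22318 to 27448 of 41174 probes were read well above background. Levels are given as log2 relative to the array's own 75th percentile, so that 0 is a bright probe and values near -6 lie at background, and they are not comparable between probes. The 4 arrays of a replicate number, 1 from each group, lay on the same slide, and slides 2 and 3 were scanned on the same day. Myog, the muscle differentiation factor, stood at 7.16, 6.37 and 6.82 in shSix4 cells with MyoD, and at 8.11, 7.87 and 7.80 in shLuc cells with MyoD, against levels of -7.08 to -5.29 on the 6 empty-vector arrays. Six4 stood at -3.03, -2.93 and -1.54 in shSix4 cells with MyoD, against -1.45, -1.69 and -0.85 in shLuc cells with MyoD, a log2 difference of -1.17 ± 0.49 (SE) that did not pass (adjusted p = 0.558), and that passed in the fit blocked by slide (adjusted p = 0.0424). With empty vector Six4 stood at -4.10, -3.00 and -2.82 in shSix4 cells, against -2.62, -2.90 and -1.64 in shLuc cells, nearly equal on slide 2. All 8 skeletal muscle markers were above background on every array with MyoD, and all 7 fibroblast markers on every array of the series. In each empty-vector group 4 of the 8 muscle markers (Actc1, Acta1, Tnnt1 and Mylpf) were also above background on all 3 arrays. Of 10 neuronal markers, 2 or 3 were above background on all 3 arrays of a group, with Tubb3 and Map2 above on all 12 arrays and Snap25, Isl1 and Mnx1 on none.

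With MyoD, RNA of the fetal subunit gene Chrng rose, and the reading of the adult subunit gene Chrne did not change past the test. Of the 9 genes that could be tested, 6 rose in shSix4 cells and 6 rose in shLuc cells, and none fell: Chrng, Chrna1, Chrnb1, Chrnd, Dok7 and Rapsn in each line. Over all 12300 genes tested, 2.79% rose in shSix4 cells and 4.72% in shLuc cells. The median log2 change of the 9 genes was 4.32 in shSix4 cells, beside -0.058 over all genes, and 4.89 in shLuc cells, beside -0.14 over all genes. The filter on dim probes kept genes above background on all 3 arrays of some group. Chrng, Chrna1, Dok7 and Ache passed it only through groups with MyoD. A rise of these genes was thus partly built in, and the count and the median of the 9 are a description. A gene was called where its adjusted p (limma, Benjamini-Hochberg over all 12300 genes) was under 0.05. In RNA from whole cultures, fewer cells of a type and less RNA per cell cannot be told apart.

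**Figure D1:**
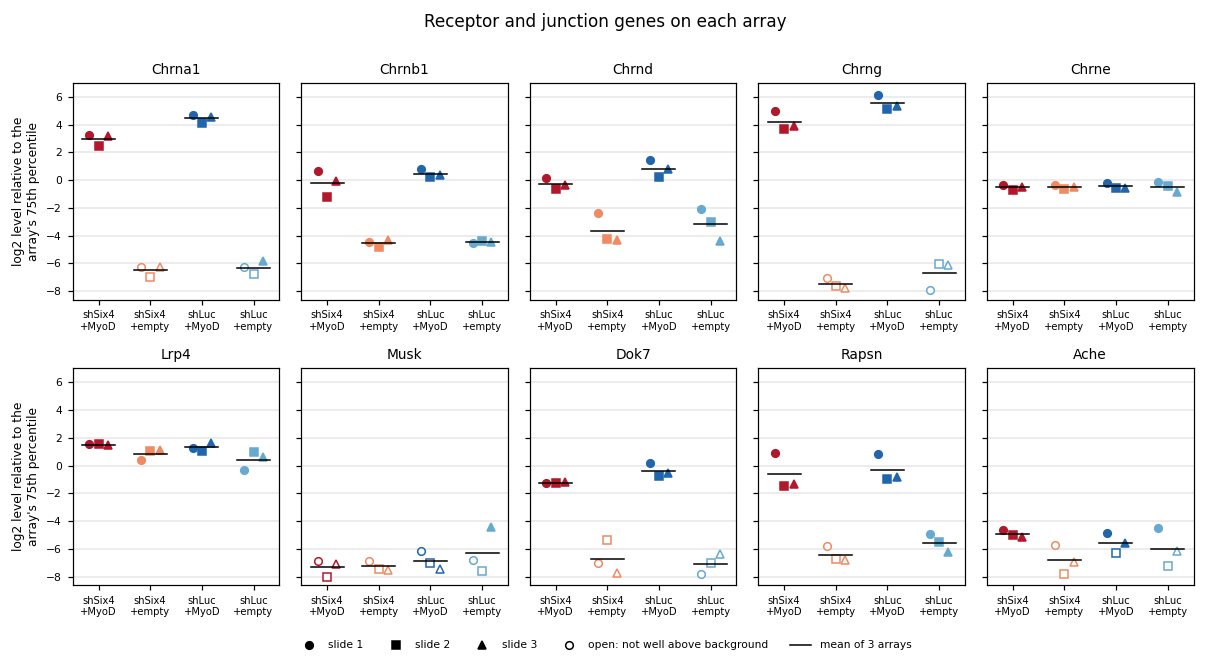
Log2 level of each gene on each of the 12 arrays, relative to the array's 75th percentile. Symbols mark the slide, open symbols a probe not well above background, and bars the mean of 3 arrays. Chrng and Chrna1 lie above 2 on all arrays with MyoD and below -5 on all arrays with empty vector, while the levels of Chrne lie between -0.84 and -0.14 in all groups and those of Musk are open on 11 of 12 arrays.

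Chrng encodes gamma, the subunit of the fetal channel. Log2 levels of Chrng were 4.94, 3.67 and 3.87 in shSix4 cells with MyoD, against -7.07, -7.65 and -7.78 in shSix4 cells with empty vector. The levels in shLuc cells were 6.14, 5.11 and 5.33 with MyoD, against -7.89, -6.04 and -6.10 with empty vector. No empty-vector array was well above background for this probe, so its change is a bound. Chrng was at least 746-fold higher with MyoD in shSix4 cells (adjusted p = 2.18e-07) and at least 2691-fold higher in shLuc cells (adjusted p = 8.6e-08, n = 3 against 3 in limma). Such a bound sets the bright group against a floor, the lowest signal well above background on each empty-vector array. Where the probe's own level was higher than that floor, its own level was used. That floor differed between arrays (-6.36 to -4.86), so bounds do not compare the lines. All bounds given here hold for this background processing only. With the normexp background correction the log2 change of Chrng was 7.28 in shSix4 cells and 7.74 in shLuc cells, smaller than these bounds. The fitted log2 changes were 11.66 ± 0.51 and 12.20 ± 0.51 (SE), and within slides they ran over 11.32 to 12.01 in shSix4 cells and 11.15 to 14.03 in shLuc cells.

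A second probe of Chrng, dimmer throughout, moved the same way. It stood at log2 levels of 0.35, -1.88 and -1.55 in shSix4 cells with MyoD, against -6.06, -6.24 and -6.24 with empty vector. On arrays of shLuc cells the levels were 1.54, -0.54 and -0.17 with MyoD, against -5.62, -4.75 and -5.46 with empty vector, where 2 of 3 arrays were above background. Its log2 change was 5.15 ± 0.62 in shSix4 cells (at least 20.5-fold, adjusted p = 0.00063 over 24000 probes) and 5.55 ± 0.62 in shLuc cells (adjusted p = 0.000224). The probes of Chrng share the direction and not the size. In shLuc cells the dimmer probe rose 46.9-fold, far less than the bound of 2691-fold of the brighter probe. The cause of that gap was not tested, so the size of the rise is uncertain. In shSix4 cells both changes are bounds, so their sizes were not compared.

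Chrna1 encodes alpha, the subunit that carries most of the acetylcholine binding site. Its log2 levels were 3.26, 2.43 and 3.20 in shSix4 cells with MyoD, against -6.24, -6.97 and -6.26 with empty vector. In shLuc cells they were 4.67, 4.13 and 4.54 with MyoD, against -6.24, -6.78 and -5.84 with empty vector. The arrays with MyoD did not overlap those without, and of the 6 empty-vector arrays only shLuc replicate 3 was above background. Chrna1 rose by 9.46 ± 0.32 in shSix4 cells (at least 326-fold, adjusted p = 6.06e-08) and by 10.73 ± 0.32 in shLuc cells (adjusted p = 1.04e-08). The second probe of Chrna1 was above background on no empty-vector array and rose by at least 58.1-fold in shSix4 cells and by at least 258-fold in shLuc cells.

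**Figure D2:**
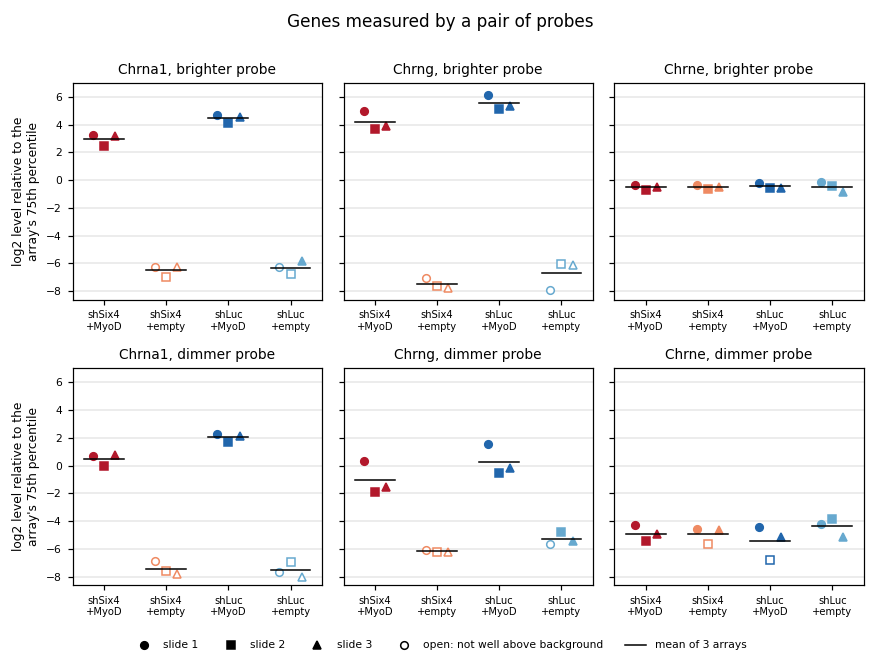
Log2 levels of the brighter and the dimmer probe of Chrna1, Chrng and Chrne on each array, with symbols as in the plot of all 10 genes. Both probes of Chrna1 and both of Chrng are higher on all arrays with MyoD than on all with empty vector, and neither probe of Chrne separates them.

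Chrnb1 encodes beta. It was above background on all 12 arrays, so its change is measured on both sides. Log2 levels of Chrnb1 were 0.65, -1.22 and -0.050 in shSix4 cells with MyoD, against -4.48, -4.79 and -4.31 with empty vector. The levels in shLuc cells were 0.77, 0.22 and 0.36 with MyoD, against -4.52, -4.36 and -4.44 with empty vector. Chrnb1 rose by 4.32 ± 0.38 in shSix4 cells (20.0-fold, adjusted p = 4.48e-05) and by 4.89 ± 0.38 in shLuc cells (29.7-fold, adjusted p = 9.74e-06).

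Chrnd encodes delta and lies next to Chrng on chromosome 1. It too was above background on all 12 arrays. It stood at log2 levels of 0.15, -0.67 and -0.37 in shSix4 cells with MyoD, against -2.35, -4.21 and -4.34 with empty vector. On arrays of shLuc cells the levels were 1.45, 0.25 and 0.79 with MyoD, against -2.10, -3.01 and -4.37 with empty vector. On empty-vector arrays of slide 1 the level was the highest of its group in both lines. Chrnd rose by 3.33 ± 0.63 in shSix4 cells (10.1-fold, adjusted p = 0.0127) and by 3.99 ± 0.63 in shLuc cells (15.9-fold, adjusted p = 0.00236), with 2.50, 3.54 and 3.97 on slides 1, 2 and 3 in shSix4 cells. The call in shSix4 cells ended without shSix4 replicate 2 or 3 with empty vector (2.98 to 3.05, adjusted p 0.0644 to 0.0658) and without shSix4 replicate 1 or 3 with MyoD (3.11 to 3.37, adjusted p 0.0514 to 0.0585).

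Chrne encodes epsilon, the subunit that takes the place of gamma in adult muscle. Its brighter probe was above background on all 12 arrays and hardly moved. Its log2 levels were -0.33, -0.68 and -0.52 in shSix4 cells with MyoD, against -0.38, -0.62 and -0.49 with empty vector. In shLuc cells they were -0.19, -0.60 and -0.57 with MyoD, against -0.14, -0.40 and -0.84 with empty vector. The 4 groups overlapped. The log2 change with MyoD was -0.014 ± 0.21 in shSix4 cells (adjusted p = 0.999) and 0.0091 ± 0.21 in shLuc cells (adjusted p = 0.99). The dimmer probe of Chrne lay near background, with log2 levels of -5.46 to -4.28 in shSix4 cells with MyoD, -5.61 to -4.55 in shSix4 cells with empty vector, -6.82 to -4.43 in shLuc cells with MyoD and -5.14 to -3.81 in shLuc cells with empty vector. Its change was 0.030 ± 0.59 in shSix4 cells and -1.08 ± 0.59 in shLuc cells (adjusted p = 0.432). In the RefSeq table another gene, 4930544D05Rik, lies within Chrne. Whether the brighter probe also reads that transcript was not tested.

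The change of gamma was set against that of epsilon within each array, as log2 of Chrng minus log2 of Chrne, which measures unequal change and not their relative amounts. The difference was 5.27, 4.35 and 4.39 in shSix4 cells with MyoD, against -6.69, -7.03 and -7.30 with empty vector. In shLuc cells it was 6.33, 5.71 and 5.90 with MyoD, against -7.74, -5.64 and -5.26 with empty vector. All 6 arrays with MyoD lay above 0 and all 6 with empty vector below it. Averaged over the lines, it was higher with MyoD by 11.94 (exact two-sided permutation of the vector within each line, p = 0.005, the smallest that 400 arrangements allow). With the replicate number as a block, signs turned within slides gave p = 0.0312, the smallest that 64 exact sign arrangements allow, and the slides alone gave 13.02, 11.37 and 11.42. With the mean of each gene's probes the value was 8.91, and with the normexp background correction it was 7.49 (both p = 0.005 in the same exact test). The brighter probe of Chrng is below background without MyoD, so these values follow its floor on those arrays. Chrng passed the filter on dim probes only through groups with MyoD, so a difference was partly built in. Chrne hardly moved, so the values and their p-values restate the rise of Chrng and are no separate support.

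The clustering machinery split by gene. Dok7, the adaptor that keeps MuSK active, was above background on every array with MyoD and on none with empty vector. Log2 levels of Dok7 were -1.29, -1.29 and -1.22 in shSix4 cells with MyoD, against -7.05, -5.38 and -7.74 with empty vector. The levels in shLuc cells were 0.19, -0.72 and -0.57 with MyoD, against -7.82, -7.01 and -6.36 with empty vector. Dok7 rose by at least 16.4-fold in shSix4 cells (adjusted p = 0.000117) and by at least 48.0-fold in shLuc cells (adjusted p = 1.32e-05).

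Rapsn encodes rapsyn, the scaffold under the receptor cluster. It stood at log2 levels of 0.93, -1.49 and -1.32 in shSix4 cells with MyoD, against -5.76, -6.76 and -6.83 with empty vector. On arrays of shLuc cells the levels were 0.85, -0.95 and -0.84 with MyoD, against -4.96, -5.47 and -6.21 with empty vector. The arrays of slide 1 read highest in each of the 4 groups. Rapsn rose by at least 27.0-fold in shSix4 cells (adjusted p = 0.000392) and by 5.23 ± 0.68 on the log2 scale in shLuc cells (37.5-fold, adjusted p = 0.000563), where all 3 empty-vector arrays were above background.

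Lrp4, the agrin receptor, was expressed in all groups. Its log2 levels were 1.53, 1.52 and 1.48 in shSix4 cells with MyoD, against 0.40, 1.05 and 1.09 with empty vector. In shLuc cells they were 1.26, 1.03 and 1.63 with MyoD, against -0.29, 0.95 and 0.62 with empty vector. The arrays with MyoD lay above those with empty vector in both lines without overlap, and neither change passed the test. It was 0.67 ± 0.31 in shSix4 cells (adjusted p = 0.541, and 0.146 blocked by slide) and 0.88 ± 0.31 in shLuc cells (adjusted p = 0.141). In the fit blocked by slide the change in shLuc cells passed (adjusted p = 0.0315, range over the alternatives 0.0315 to 0.822), at 1.55, 0.089 and 1.01 on slides 1, 2 and 3.

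Musk, the kinase of the agrin receptor complex, was read by a single probe and was not well above background on 11 of 12 arrays. Log2 levels of Musk were -6.88, -7.98 and -7.06 in shSix4 cells with MyoD and -6.84, -7.42 and -7.52 in the shSix4 cells that got empty vector. They were -6.16, -7.04 and -7.47 in shLuc cells with MyoD and -6.82, -7.57 and -4.44 in shLuc cells with empty vector. Only the last of these, shLuc replicate 3 with empty vector, was above background. Musk did not pass the filter on dim probes and is not among the 9 genes tested. Without that filter its log2 change with MyoD was -0.048 ± 0.69 in shSix4 cells (adjusted p = 0.998) and -0.61 ± 0.69 in shLuc cells (adjusted p = 0.822, limma over 17178 genes).

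Ache, which encodes the enzyme that ends each signal, lay close to background. It stood at log2 levels of -4.61, -4.97 and -5.11 in shSix4 cells with MyoD, against -5.68, -7.77 and -6.91 with empty vector. The levels in shLuc cells were -4.87, -6.27 and -5.54 with MyoD, against -4.51, -7.26 and -6.17 with empty vector. It was above background on 3 of 3 arrays with MyoD and 0 of 3 with empty vector in shSix4 cells, and on 2 of 3 with MyoD and 1 of 3 with empty vector in shLuc cells. The change in shSix4 cells was 1.89 ± 0.68 (at least 1.40-fold) and did not pass (adjusted p = 0.282). Ache passed the filter only through shSix4 cells with MyoD, the group where it is highest, so that a difference was partly built in. Blocked by slide it passed (adjusted p = 0.0101, range over the alternatives 0.0101 to 1.00), at 1.07, 2.80 and 1.80 on slides 1, 2 and 3. In shLuc cells the change was 0.42 ± 0.68 (adjusted p = 0.805).

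**Figure D3:**
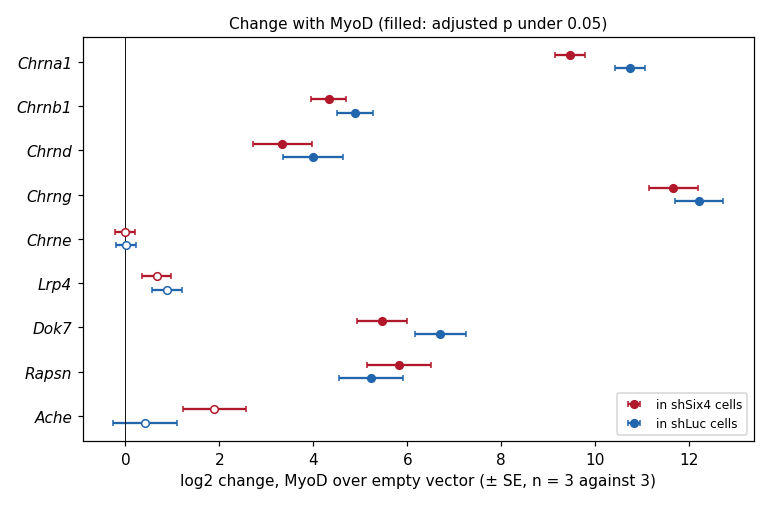
Log2 change with MyoD against empty vector for the 9 tested genes, in shSix4 cells and in shLuc cells, as limma estimates with SE bars and n = 3 against 3. Filled symbols passed an adjusted p of 0.05: Chrna1, Chrnb1, Chrnd, Chrng, Dok7 and Rapsn in both lines, at 3.33 to 11.66 in shSix4 cells and 3.99 to 12.20 in shLuc cells. Chrne lies at 0.

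The arrays with MyoD lay wholly above those with empty vector for 8 of the 9 genes in shSix4 cells, where 7.15% of all genes did so, and for 7 in shLuc cells, where 10.2% did. Chrne overlapped in both lines and Ache in shLuc cells. With the slide as a block 7 genes rose in each line, against 5.7% of all genes in shSix4 cells and 9.89% in shLuc cells. The added gene was Ache in shSix4 cells and Lrp4 in shLuc cells. The calls of Chrnb1, Chrnd, Dok7 and Rapsn ended with the normexp background correction, where their changes were 2.00 to 2.68 in shSix4 cells (adjusted p 0.404 to 1.00) and 2.32 to 2.50 in shLuc cells (adjusted p 0.25 to 0.671). Those of Chrng (7.28 in shSix4 and 7.74 in shLuc cells) and Chrna1 (6.18 in shSix4 and 6.72 in shLuc cells) stood under every alternative that could test them.

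Does the hairpin against Six4 change these genes once cells have been converted? Between shSix4 and shLuc cells with MyoD, none of the 9 genes passed the test that leaves out the slide (limma). In the limma fit blocked by slide, which uses the pairing of the arrays, Chrna1 passed, lower in shSix4 cells (adjusted p = 0.00312). Chrna1, Chrnb1, Chrnd and Chrng read below 0 on all 3 slides, and Chrne lay at 0 within its error. Without the block, 0.228% of all genes passed in either direction. At an unadjusted p under 0.05 there were 2 of the 9, Chrna1 and Chrng, and 960 of 12300 genes. The median log2 difference of the 9 genes was -0.66, beside 0.029 over all genes, and 7 of the 9 were below 0. Groups did not overlap, with shSix4 cells lower, for Chrna1, Chrnd, Chrng and Dok7, and 6.05% of all genes did so.

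Chrna1 had the smallest p of the 9. Its log2 difference was -1.48 ± 0.32 (2.79-fold lower, adjusted p = 0.101), and -1.41, -1.69 and -1.33 on slides 1, 2 and 3. Blocked by slide the SE was 0.14 and Chrna1 passed (adjusted p = 0.00312, range over the alternatives 0.00312 to 0.937). It was the only one of the 9 genes to do so, where 2.59% of all genes passed lower. Its dimmer probe stood at log2 levels of 0.69, -0.028 and 0.77 in shSix4 cells with MyoD, against 2.29, 1.73 and 2.15 in shLuc cells with MyoD. That probe gave -1.58 ± 0.35 (adjusted p = 0.148 over probes, and 0.0429 with the block), and the mean of the probes gave -1.53 (adjusted p = 0.0401 over genes).

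For Chrng the log2 difference was -1.37 ± 0.51 (2.58-fold, adjusted p = 0.463), at -1.20, -1.44 and -1.46 on slides 1, 2 and 3. The block did not bring it past the threshold (adjusted p = 0.192), and slides 2 and 3 alone did (-1.45, adjusted p = 0.0202). The second probe of Chrng gave -1.30 ± 0.62 (adjusted p = 0.788), with groups that overlapped. Chrnd read -1.13 ± 0.63 (adjusted p = 0.828) and Dok7 -0.90 ± 0.54 (adjusted p = 0.864), below 0 on every slide, and neither passed with the block (0.122 for Chrnd and 0.399 for Dok7). Chrnb1 read -0.66 ± 0.38 (adjusted p = 0.851), with -0.11, -1.44 and -0.41 on slides 1, 2 and 3, so slide 2 carried most of it.

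The other members did not share a direction. Rapsn read -0.31 ± 0.68, Chrne -0.057 ± 0.21, Lrp4 0.21 ± 0.31 and Ache 0.66 ± 0.68, each with an adjusted p of 0.999. The difference of Chrng minus Chrne between shSix4 and shLuc cells with MyoD was -1.31 (exact two-sided permutation p = 0.1, the smallest that 3 against 3 arrays allow). It was -1.06, -1.36 and -1.51 on slides 1, 2 and 3.

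**Figure D4:**
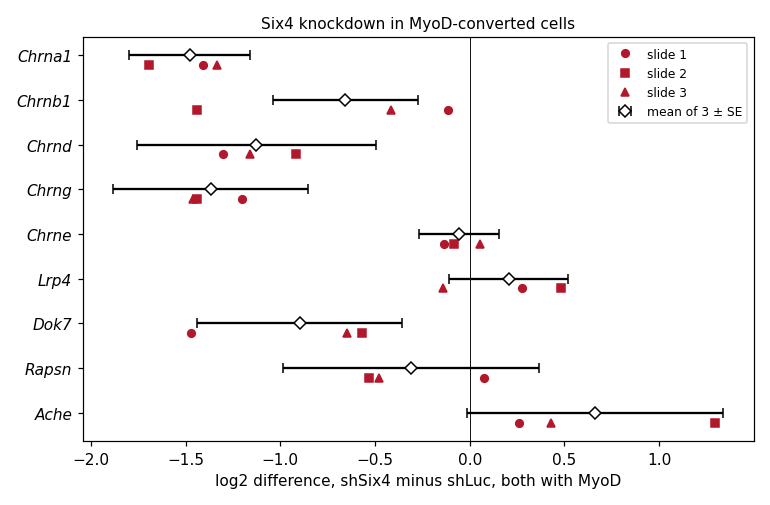
Log2 difference of shSix4 minus shLuc cells, both with MyoD, for each of the 9 tested genes. Diamonds are limma estimates with SE bars (n = 3 against 3), and smaller symbols are the differences within each slide. Chrna1, Chrnd, Chrng, Dok7 and Chrnb1 lie below 0 on all 3 slides, Chrna1 at -1.69 to -1.33, and Ache lies above 0 on all 3.

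Values of other genes moved with this comparison. The summed log2 level of the 8 skeletal muscle markers was 7.32 to 8.20 in shSix4 cells with MyoD, against 8.80 to 9.30 in shLuc cells with MyoD. It was 3.46 to 5.78 in shSix4 cells with empty vector and 4.59 to 5.46 in shLuc cells with empty vector. In shSix4 against shLuc cells with MyoD all 8 read below 0, and 1 passed, the embryonic myosin gene Myh3, at -2.40 ± 0.37 (adjusted p = 0.0304). Blocked by slide Myh3 (0.0122), Mylpf (0.0146) and Des (0.0149) passed. Myog read -1.15 ± 0.31 (adjusted p = 0.192) and Myod1 -1.45 ± 0.81 (adjusted p = 0.837). The log2 levels of Myod1 were -2.17, -0.86 and -0.23 in shSix4 cells with MyoD, against 0.071, -0.23 and 1.23 in shLuc cells with MyoD. Myod1 was thus lower in shSix4 cells on every slide, by unequal amounts, so equal levels are not shown. Of the 4 neuronal markers tested 1 passed, the choline transporter gene Slc5a7, higher by 1.96 ± 0.33 (adjusted p = 0.0451). Slc5a7 was above background on 3 of 3 arrays of shSix4 cells with MyoD and 1 of 3 of shLuc cells. Its size thus rests on values near background. None of the fibroblast, Schwann cell and smooth muscle markers passed this test. Blocked by slide the fibroblast marker Thy1 passed higher (0.68, adjusted p = 0.0229). The Schwann cell marker Mbp (-1.72, adjusted p = 0.0103) and the smooth muscle marker Cnn1 (-1.92, adjusted p = 0.0278) passed lower. The RNA of Chrna1, Chrnb1, Chrnd and Chrng also read lower here, and none of these genes passed without the block. The part of the marker values in those readings was not tested.

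Without MyoD, the shSix4 and shLuc lines showed no difference past the test in any of the 9 genes (limma; 0 of the 9 at an unadjusted p under 0.05, and 0.0569% of all genes called). Their median log2 difference was -0.20, beside -0.025 over all genes. The brighter probe of Chrng and the probe of Dok7 were above background on no array there and the brighter probe of Chrna1 on 1 of 6, so their values hold no order. The dimmer probe of Chrng was above background on 0 of 3 arrays of shSix4 cells and 2 of 3 of shLuc cells. It read -0.90 ± 0.62, with shSix4 cells lower and no overlap of the groups, and did not pass the test. Among the genes measured on all arrays, Chrnb1 read -0.088 ± 0.38, Chrnd -0.47 ± 0.63, Chrne -0.034 ± 0.21 and Lrp4 0.42 ± 0.31. Rapsn was above background on 0 of 3 arrays of shSix4 cells and 3 of 3 of shLuc cells (-0.90 ± 0.68, adjusted p = 0.999, and 0.22 blocked by slide).

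The test of whether the MyoD response itself differed between the lines, as the response in shSix4 minus that in shLuc cells, called none of the 9 genes and 0% of all genes, with or without the slide as a block. Chrna1 gave -1.28 ± 0.45 (unadjusted p = 0.0166, adjusted p = 1.00, and 0.152 with the block), and it was the only one of the 9 at an unadjusted p under 0.05 (249 of 12300 genes). Chrng gave -0.54 ± 0.73, Dok7 -1.24 ± 0.77, Chrnd -0.66 ± 0.89 and Rapsn 0.59 ± 0.96. The median was -0.54, beside 0.073 over all genes. Dimmer probes gave -1.70 ± 0.49 for Chrna1, -0.40 ± 0.87 for Chrng and 1.11 ± 0.84 for Chrne, and none passed. For that probe of Chrna1 the unadjusted p was 0.00556 and the adjusted p with the block 0.558 (limma over 24000 probes). The values of Chrna1, Chrng and Dok7 rest on empty-vector arrays near background, so their sizes are uncertain.

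In order of level, Chrna1 and Chrng stood highest in shLuc cells with MyoD, then in shSix4 cells with MyoD, then in the empty-vector groups, which overlapped. Chrnd and Dok7 kept that order, with overlapping empty-vector groups. For Chrnb1 and Rapsn the groups with MyoD overlapped each other and stood above both empty-vector groups. Lrp4 stood highest in shSix4 cells with MyoD and overlapped with shLuc cells with MyoD. Ache stood higher with MyoD than with empty vector in shSix4 cells, and both groups overlapped with those of shLuc cells. Chrne and Musk had no order of the 4 groups beyond their spread.

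The genes most like Chrng over the 12 arrays were Myog (Pearson r 0.997), the M-band gene Myom2 (0.995), the thin filament gene Lmod3 (0.995), Chrna1 (0.994) and the myosin light chain gene Myl1 (0.994), among 12143 genes without missing values. Chrnb1 (r 0.988) ranked 21st, Dok7 (0.980) 54th, Rapsn (0.967) 98th and Chrnd (0.922) 265th, while Lrp4 stood at 0.721, Ache at 0.537 and Chrne at 0.0035. The arrays form 2 clusters for these genes, with and without MyoD, and share slides, so r describes mainly that step. The genes most like Chrne were Aspdh (0.929), Mycs (0.918), Slc35b1 (0.904), Zfp553 (0.894) and Vdac3 (0.892), over levels of Chrne that ran only over -0.84 to -0.14.

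Beyond the 10 genes, Lama5 and Ncam1 rose with MyoD in both lines. A list of 57 other junction genes had 54 on the array, of which 38 could be tested. In shSix4 cells 2 rose and none fell, where 2.79% of all genes rose and 0.106% fell. In shLuc cells 3 rose and 1 fell, where 4.72% of all genes rose and 1.56% fell. The median log2 change was -0.16 in shSix4 cells, beside -0.058 over all genes, and -0.13 in shLuc cells, beside -0.14 over all genes. With the slide as a block 3 rose and 1 fell in shSix4 cells (5.7% of all genes rose and 2.6% fell), and 5 rose and 7 fell in shLuc cells (9.89% rose and 15.7% fell).

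Lama5 was the most changed of the nerve and basal lamina components (1 of 6 tested rose in each line, beside 2.79% of all genes in shSix4 and 4.72% in shLuc cells). It encodes the laminin alpha-5 chain of the synaptic basal lamina. Its log2 levels were 2.29, 0.93 and 1.22 in shSix4 cells with MyoD, against -0.91, -2.86 and -3.07 with empty vector. On arrays of shLuc cells the levels were 2.64, 2.10 and 2.38 with MyoD, against -0.13, -0.81 and -1.05 with empty vector. Lama5 rose by 3.76 ± 0.54 in shSix4 cells (adjusted p = 0.00193) and by 3.03 ± 0.54 in shLuc cells (adjusted p = 0.0053). Agrn, the gene of the nerve signal agrin that muscle also makes, was expressed on all arrays and read -0.17 ± 0.34 in shSix4 cells and -0.0077 ± 0.34 in shLuc cells. Its adjusted p was 0.997 in shSix4 and 0.994 in shLuc cells.

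Of the postsynaptic scaffold and membrane proteins, 1 of 10 tested rose in shSix4 cells, where 2.79% of all genes rose, and 2 of 10 in shLuc cells, where 4.72% did. Ncam1, an adhesion molecule of embryonic and denervated muscle, rose by 0.90 ± 0.19 in shSix4 cells (adjusted p = 0.0274) and by 1.12 ± 0.19 in shLuc cells (adjusted p = 0.00414). Log2 levels of Ncam1 were 3.83, 3.48 and 3.93 in shSix4 cells with MyoD, against 2.62, 2.89 and 3.06 with empty vector. In shLuc cells they were 4.19, 3.89 and 4.09 with MyoD, against 2.77, 3.08 and 2.97 with empty vector, and the groups did not overlap in either line. Syne1, which anchors nuclei at the synapse, rose by 1.05 ± 0.26 in shLuc cells (adjusted p = 0.0391) and read 0.075 ± 0.26 in shSix4 cells. The difference of its response between the lines was -0.97 ± 0.37 (adjusted p = 1.00).

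Among receptors and signalling partners, none of 8 tested passed in shSix4 cells, and in shLuc cells the kinase gene Src fell by 0.69 ± 0.16 (adjusted p = 0.0259), with -0.38 ± 0.16 in shSix4 cells (adjusted p = 0.432). None of 6 tested genes for receptor assembly and glycosylation, none of 5 transcriptional regulators of synaptic genes and none of 3 neuronal nicotinic subunits passed in either line. The regulators included Gabpa, an Ets factor that binds the N-box, at 0.18 ± 0.22 in shSix4 and -0.020 ± 0.22 in shLuc cells. Between shSix4 and shLuc cells, with either vector, and in the difference of the MyoD response, 0 of the 38 genes passed.

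**Figure D5:**
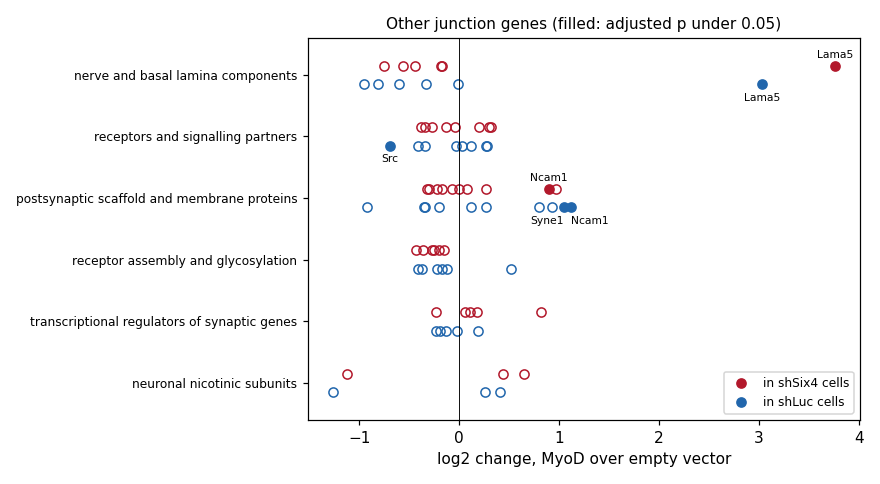
Log2 change with MyoD against empty vector for the 38 other junction genes tested, grouped by role, in shSix4 cells and in shLuc cells. Filled symbols passed an adjusted p of 0.05: Lama5 and Ncam1 in both lines, and Syne1 (higher) and Src (lower) in shLuc cells. All other symbols are open.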

How the data were processed

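Total RNA (300 ng) was labelled with Cy3 and hybridised to 12 single-colour Agilent arrays. Per the file headers, the deposited scanner files hold intensity on a linear scale, background-corrected and detrended within each array by Agilent Feature Extraction 11.5.1.1. The submitters' processing notes name version 10.5.1.1. A second deposited file holds log2 values normalized by the authors, by a method that no label states, and served as an alternative. Each of its columns followed its own array (r 0.9993 to 0.9998 across probes), with column medians of 8.66 to 8.72, so it holds levels, with arrays levelled and genes not centred.

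Processed signals were taken to log2 and scaled by subtracting the 75th percentile of the array. Control and outlier-marked spots were left out, and no spot was saturated. Kept were 24000 of 41174 probes, those well above background on all 3 arrays of some group. A gene took its named probe with the highest mean (12300 genes, named through RefSeq). The fit was limma 3.58.1 in R 4.3.3 (jsonlite 2.0.0), 1 mean per group over all 12 arrays, Benjamini-Hochberg over all genes, threshold 0.05, tested on simulated data. The simulated arrays were independent, without a shared slide or a background floor, so the fit was not tested under either. Errors are SE. The number of arrays limits the precision. The normexp correction (offset 50) and plain subtraction used the median spot signal, since the files have no mean signal. Other alternatives were quantile and median scaling, filters, probe averaging, limma-trend, the slide as a block and leaving out each array.

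Same-slide arrays deviated together (r 0.28 to 0.82 over 18 pairs of deviations from the group means, against -0.73 to 0.50 over 36 pairs on different slides), so the replicate number, which is the slide per the file headers, pairs the samples. All members are described with every probe. Of other junction genes those past the threshold and all nicotinic subunits are named, with Agrn, Gabpa, 3 neuronal markers and the markers Thy1, Mbp and Cnn1 added after their values were seen, and the 5 genes most correlated with Chrng and with Chrne. Members and lists were chosen with earlier results of these data known.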

Additional observations from a re-analysis of the deposited data

Results flagged for a closer look

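For Ache the differences between the lines had opposite signs with the 2 vectors on all 3 slides, and none of them passed the test. With MyoD, shSix4 minus shLuc cells gave log2 differences of 0.26, 1.30 and 0.43 on slides 1, 2 and 3, and with empty vector -1.17, -0.52 and -0.74. The difference of these differences was 1.47 ± 0.95 (SE), which did not pass in limma (adjusted p = 1.00, and 0.644 with the slide as a block). Over the alternatives the log2 difference with MyoD ran over -0.61 to 1.30. Of the 12 arrays, 6 were not well above background for this probe, among them all 3 of shSix4 cells with empty vector. Ache passed the filter on dim probes only through shSix4 cells with MyoD, so a positive difference of differences was partly built in. The gene was also flagged on these same values, so the pattern is a description only.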

How the results depend on the processing

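Of 12 called results of single genes, 4 stood under every alternative that could test them (Chrng and Chrna1 with MyoD in both lines), of 33 results not called 28 were called under none. No called value changed sign, while 19 of the 33 results not called did so under some alternative. Against 6 of 9 genes called with MyoD in each line, normexp called 2 of 9, probes above background on all 12 arrays 2 of 4 and the authors' deposited values 2 of 4 in each, where fewer members have a probe. Against 0 called between shSix4 and shLuc cells with MyoD, the mean of a gene's probes called 1, the replicate block 1 (both Chrna1) and slides 2 and 3 only, chosen after seeing the data, 1 (Chrng). With empty vector slides 2 and 3 only called 1, again Chrng (-1.65, adjusted p = 0.00592), by its brighter probe, which was below background in both lines. The cause was not tested. Except for the block, the share of all genes called under each of these settings is not given here. The counts therefore do not show whether calls were lost or gained for these genes alone. The blocked fit also called Lrp4 in shLuc and Ache in shSix4 cells and changed no other call of the 10 genes. The value of Chrng minus Chrne with MyoD was 11.39 on slides 2 and 3 only (exact permutation p = 0.0556, the smallest possible), 13.02 on slide 1 alone, and 11.55 to 12.17 without any 1 array. It could not be computed from the authors' values or among probes above background on all 12 arrays, where Chrng has none. Musk and, without MyoD, Chrng, Chrna1, Dok7 and Ache are limited by their signal near background.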

Other observations

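Neuronal nicotinic subunits were mostly undetected. Of 11 such genes, by the best probe of each, Chrna3, Chrna7, Chrnb3 and Chrnb4 were above background on none of the 12 arrays, and Chrna2, Chrna6, Chrna9 and Chrnb2 on 1. Chrna5 and Chrna10 were above background on all 12 arrays and Chrna4 on 8. Chrna5, an accessory subunit of neuronal receptors, was at log2 levels of -4.18, -3.73 and -3.03 in shSix4 cells with MyoD, against -3.05, -2.32 and -2.20 with empty vector. In shLuc cells it was at -4.83, -3.76 and -3.86 with MyoD, against -3.24, -2.92 and -2.51 with empty vector. Its change with MyoD was -1.12 ± 0.38 in shSix4 cells (limma, adjusted p = 0.242) and -1.26 ± 0.38 in shLuc cells (adjusted p = 0.0829), lower on all 3 slides in both lines. With the slide as a block Chrna5 passed in both lines (adjusted p = 0.00287 in shSix4 and 0.000832 in shLuc cells). Chrna4 read 0.65 ± 0.43 in shSix4 and 0.41 ± 0.43 in shLuc cells, and Chrna10 0.44 ± 0.38 in shSix4 and 0.26 ± 0.38 in shLuc cells.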
